A study of Mus musculus with 3 samples.

Results

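The lectin receptors of the Dectin-2 and Mincle gene cluster were followed here: Clec4n, Clec4d, Clec4e, Clec4a1, Clec4a2 and Clec4a3. They were taken by symbol from the deposited gene lists, and 6 of 6 were found among 32286 genes. Cells came from the bronchoalveolar lavage of mice given bleomycin through the airway, a standard way to bring on lung fibrosis, and lavage was collected at day 14. The study held 3 libraries, 1 per group: wild-type mice given the vehicle (WT DMSO), wild-type mice given GW5074, a small-molecule kinase inhibitor that acts on Raf-1 (WT GW5074), and Clec7a knockout mice given the vehicle (KO DMSO). All 3 groups received bleomycin, lavage of a group's mice was pooled before CD11b+ or CD11c+ cells were sorted, and the number of mice, their age and strain and the cells in which Clec7a was deleted were not given in the sources used here. Clec7a encodes Dectin-1, the β-glucan receptor.

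C-type lectin receptors of myeloid cells bind sugars and glycolipids of microbes and of damaged cells. Dectin-2 (Clec4n), MCL (Clec4d) and Mincle (Clec4e) have no activating motif of their own and signal through the Fc receptor γ chain (Fcer1g), the kinase Syk and the Card9, Bcl10 and Malt1 complex, a path that ends in cytokine and chemokine genes. Dectin-1 carries its own motif and joins the same path at Syk, so the question addressed was whether these neighbours differed in level when Dectin-1 was lost. Clec4a2 encodes DCIR1, an inhibitory receptor that recruits phosphatases, and Clec4a1 and Clec4a3 encode its relatives DCIR4 and DCIR3.

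In the GENCODE M21 annotation of mm10, the 6 genes lie within 368 kb of chromosome 6 and are all protein coding. In order of position they are Clec4a1 (ENSMUSG00000049037, 122921848 to 122934619), Clec4a3 (ENSMUSG00000043832, 122952515 to 122969875), Clec4a2 (ENSMUSG00000030148, 123106428 to 123143999), Clec4n (ENSMUSG00000023349, 123229843 to 123247021) and Clec4d (ENSMUSG00000030144, 123262111 to 123275265), all on the plus strand. Clec4e (ENSMUSG00000030142, 123281789 to 123289870) lies on the minus strand, so that Clec4d and Clec4e point towards each other with 6.52 kb between their ends. Clec4a2 overlaps 1 other gene, the processed pseudogene Gm44132 on the same strand, and the Clec4a genes are close copies, so reads of Clec4a1, Clec4a2 and Clec4a3 may have been split or discarded in counting. Their values are less certain than those of Clec4n, Clec4d and Clec4e.

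Promoter windows were available for 5 of the 6 lectins (RefSeq, GRCm38.p6), Clec4n not among them. The 250 bases before the start of Clec4d and of Clec4e are shown, since these neighbours were both highest, as a share of counted RNA, in neutrophil-like cells. Capitals mark matches to GAGGAA, the core of the site of the myeloid factor PU.1 (TTCCTC when read on the other strand), to TTGCNNAA, a C/EBP-type site, and to TATAAA, the TATA box, each searched on both strands. The Clec4d window is chr6:123261857-123262106 on the plus strand and the Clec4e window chr6:123289872-123290121 on the minus strand.
Clec4d: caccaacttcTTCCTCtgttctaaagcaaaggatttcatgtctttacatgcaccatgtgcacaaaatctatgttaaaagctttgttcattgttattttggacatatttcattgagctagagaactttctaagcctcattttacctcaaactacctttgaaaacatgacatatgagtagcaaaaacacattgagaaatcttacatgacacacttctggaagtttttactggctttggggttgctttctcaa
Clec4e: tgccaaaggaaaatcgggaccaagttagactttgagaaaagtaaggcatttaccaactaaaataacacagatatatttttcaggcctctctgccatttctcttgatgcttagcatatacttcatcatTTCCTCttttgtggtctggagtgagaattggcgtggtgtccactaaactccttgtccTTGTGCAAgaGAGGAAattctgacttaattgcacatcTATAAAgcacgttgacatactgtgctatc
Of the 32851 promoter windows in the table, 23.3% held GAGGAA, 9.56% TTGCNNAA and 12.4% TATAAA. The Clec4e window held all 3 motifs, with TATAAA beginning at -29, TTGCNNAA at -66 on the other strand, and GAGGAA at -56 and, on the other strand, at -123, counted from the start. The Clec4d window held GAGGAA alone, at -240 on the other strand. No matches overlapped. GAGGAA was also found in the windows of Clec4a1 and of Clec4a3, and TATAAA in that of Clec4a2; these are matches of letters and nothing was measured there.

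The libraries held 39180331 (WT DMSO), 45462817 (WT GW5074) and 34859676 (KO DMSO) UMIs, that is, molecules counted once each, and 42888 cells were kept. Cells were clustered without the lectins and their partners, and each cluster was named by markers of its type. The groups differed in makeup: neutrophil-like cells made up 22.9% of the WT DMSO library, 0.719% of the WT GW5074 library and 2.19% of the KO DMSO library. For resident alveolar macrophage-like (RAM-like) cells these shares were 16.1%, 38.2% and 42.4%, and for monocyte-derived macrophage-like (MDM-like) cells 9.45%, 23.3% and 19%. Between pairs of libraries, 80 to 154 cell barcodes were shared. Levels are given as CPM, a gene's UMIs summed over a class and scaled to the same total UMIs in every class and library, with a 95% Poisson interval in brackets where shown. A level is thus a share of a class's UMIs and not an amount per cell. Neutrophil-like cells were shallow, with a median of 644 UMIs in WT DMSO. RAM-like, MDM-like and monocyte-like cells there had medians of 3095, 3719 and 3106, so the order of classes per cell can differ. With 1 library per group there is no replicate and no test; intervals cover counting error only. A lectin is called higher or lower when the ratio of 2 libraries was at least 1.5-fold and its 95% interval left out 1.

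The targeted gene was checked first. Clec7a stood at 769 CPM in RAM-like cells of the WT DMSO library, 857 in WT GW5074 and 15.2 in KO DMSO. In neutrophil-like cells it stood at 385, 499 and 17.6 CPM. Few Clec7a UMIs thus remained in the KO DMSO library, far fewer than in both wild-type libraries.

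Clec4n, the gene of Dectin-2, was found across macrophages, neutrophils and monocytes. In the WT DMSO library it stood at 656 CPM (637 to 675) in RAM-like cells, 684 (662 to 706) in MDM-like cells and 783 (748 to 819) in neutrophil-like cells. The interval of neutrophil-like cells lay above both macrophage intervals, while the intervals of the macrophage classes overlapped. Monocyte-like cells stood at 466 CPM (423 to 513) and conventional dendritic cell 2 (cDC2)-like cells at 218 (195 to 243). Conventional dendritic cell 1 (cDC1)-like and migratory dendritic cell-like cells stood at 29.1 and 23.4 CPM, over 10-fold below the macrophages in each library.

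Clec4d, the gene of MCL, had a steeper order. Neutrophil-like cells of the WT DMSO library stood at 491 CPM (464 to 520), MDM-like cells at 189 (177 to 201), monocyte-like cells at 178 (152 to 208) and RAM-like cells at 86.9 (80.3 to 93.9). Monocytes and monocyte-derived macrophages did not differ beyond their intervals, and the other neighbours in that order did. The same class was highest in the other libraries, with 577 CPM (431 to 757) in WT GW5074 and 846 (714 to 996) in KO DMSO.

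Clec4e, the gene of Mincle, was concentrated further. Neutrophil-like cells stood at 361, 366 and 417 CPM in the WT DMSO, WT GW5074 and KO DMSO libraries. Monocyte-like cells came next, at 142 and 198 CPM in the wild-type libraries. RAM-like cells stood at 47.6, 41 and 50.6 CPM and MDM-like cells at 40.1, 33.1 and 46. As a share of UMIs, neutrophil-like cells thus had the highest Clec4e level of all classes in each library. In WT GW5074 their interval (252 to 514) overlapped that of monocyte-like cells (98.9 to 355).

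The Clec4a genes followed another order. Clec4a2 was highest in monocyte-like cells of the WT DMSO library, at 264 CPM (232 to 300), followed by RAM-like cells at 135 (127 to 144) and MDM-like cells at 120 (111 to 129), whose intervals overlapped. Neutrophil-like cells stood lower, at 48.4 CPM (40 to 58). Clec4a3 stood at 139 CPM in monocyte-like cells, 106 in RAM-like cells and 93.7 in MDM-like cells, but at 14.6 in neutrophil-like cells. In WT DMSO both were therefore lower in neutrophils than in macrophages, the reverse of Clec4d and Clec4e; in WT GW5074 the few neutrophils gave intervals that reached the macrophage values. In WT GW5074, the 50 monocyte-like cells stood at 108 CPM for Clec4a2 (39.7 to 235) and 342 for Clec4a3 (206 to 535). The 9 monocyte-like cells of the KO DMSO library were too few to give a level.

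Clec4a1 was highest in monocyte-like cells in both libraries that held enough of them. Its level there was 91.7 CPM (73.2 to 114) in WT DMSO and 126 (50.7 to 260) in WT GW5074. MDM-like cells stood at 9.5, 8.27 and 9.16 CPM and cDC2-like cells at 10.5, 8.46 and 9.91. RAM-like cells stood at 1.64, 2.85 and 2.66 CPM. Clec4a1 was also among the leading genes of the monocyte-like cluster, which had 7 of 8 monocyte markers raised.

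**Figure D1:**
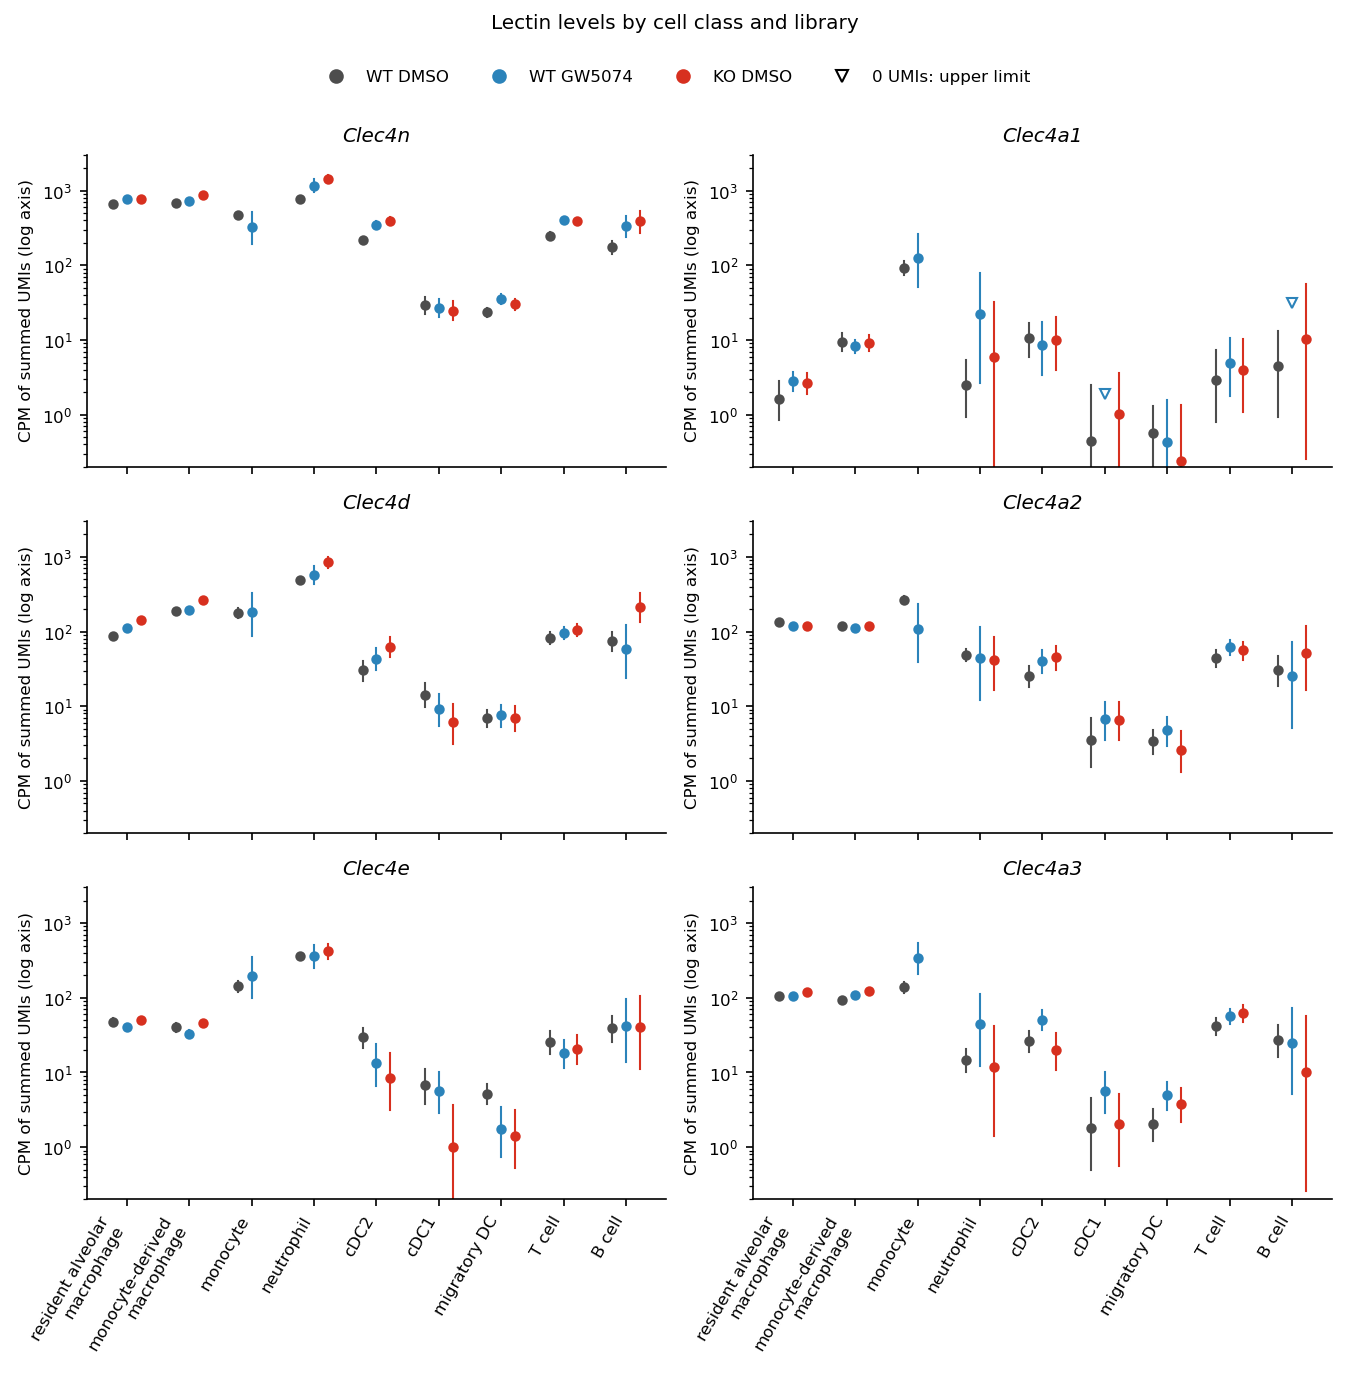
Level of each lectin (CPM of summed UMIs, log axis) by cell class, with 1 point per library and 95% Poisson intervals; a class is shown where a library held at least 50 of its cells, and an open triangle is the upper limit of a count of 0. Clec4d and Clec4e are highest in neutrophils, Clec4a1 in monocytes, and cDC1 and migratory DC lie at the bottom for Clec4n.

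T cell-like and B cell-like cells, which should lack these receptors, also carried lectin UMIs. T cell-like cells stood at 249, 406 and 394 CPM of Clec4n in WT DMSO, WT GW5074 and KO DMSO, or 38%, 53.2% and 50.7% of the resident alveolar macrophage level. Their Clec4d stood at 81.6, 96.5 and 106 CPM, or 93.9%, 87.5% and 73.7% of the resident level of that gene. B cell-like cells stood at 73.8, 58.6 and 214 CPM of Clec4d, or 84.9%, 53.1% and 150% of it. The 10 monocyte-derived macrophage markers, all detected in T cell-like cells of each library, summed there to 1980, 3150 and 3450 CPM. The 9 neutrophil markers summed there to 3170, 483 and 258 CPM. Lectin UMIs in T cell-like cells thus came with those of macrophage and neutrophil genes and were not read as expression. cDC2-like cells carried the MDM markers at 629, 1660 and 1370 CPM beside Clec4n at 218, 352 and 388. Both were thus lowest in WT DMSO, though KO DMSO was not the highest for the markers. The 10 RAM markers went the other way in cDC2-like cells, at 1060, 870 and 572 CPM.

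The classes that contributed a library's lectin UMIs differed between libraries. Of all Clec4e UMIs in the WT DMSO library, 37.1% came from neutrophil-like cells, against 2.22% in WT GW5074 and 5.08% in KO DMSO. For Clec4d these shares were 26.2%, 0.965% and 2.78%. Of Clec4a1 UMIs, 33.5% came from monocyte-like cells in WT DMSO and 3.21% in WT GW5074. In the other libraries RAM-like cells held the largest named share of Clec4e UMIs, 46.5% and 51.8%, against 14.9% in WT DMSO.

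**Figure D2:**
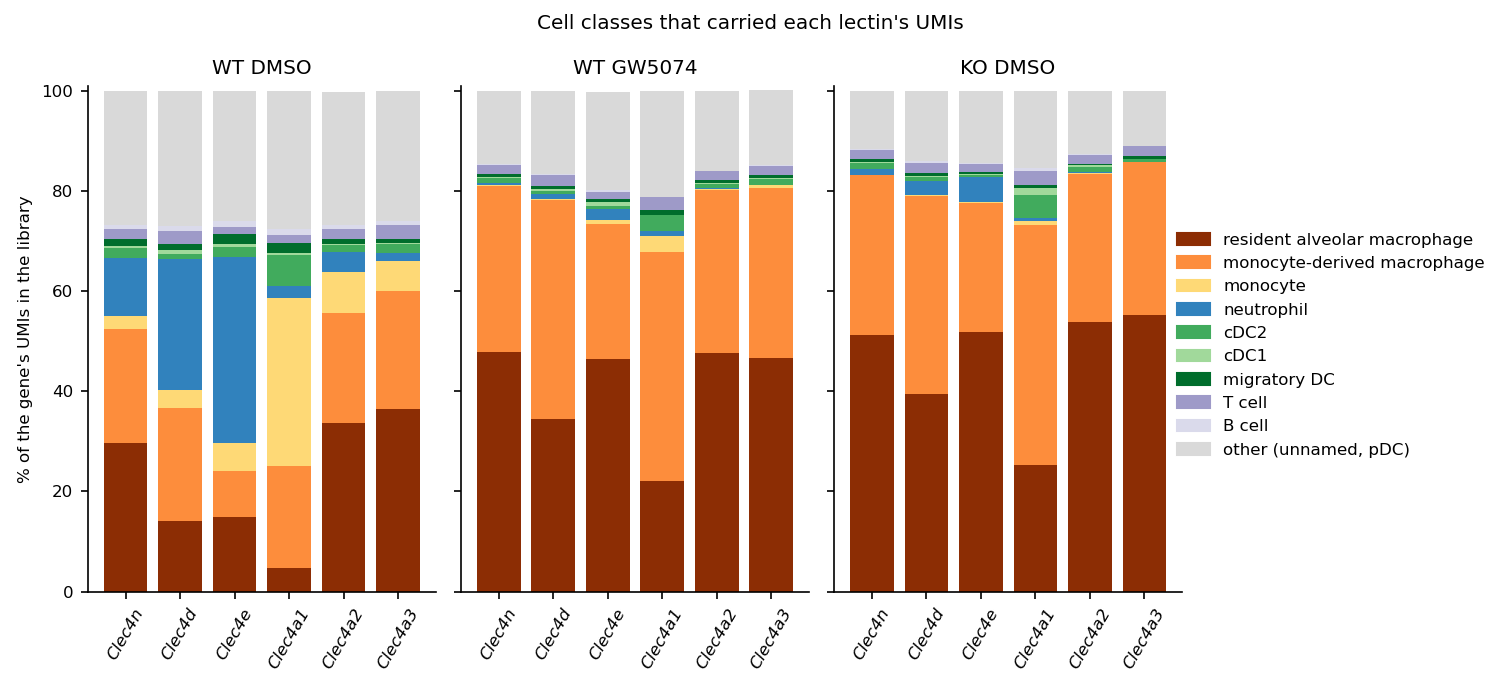
Share of each lectin's UMIs (% of the gene's UMIs in the library) by cell class, 1 stacked bar per gene and 1 panel per library. Neutrophils hold 37.1% of Clec4e UMIs in WT DMSO and at most 5.08% in the other libraries.

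Sums over all kept cells mix this makeup with the levels inside classes, and fewer cells of a class cannot be told apart there from less RNA per cell. Clec4e stood at 59.5, 32.7 and 40.1 CPM over all cells, lower by 0.86 (log2) in WT GW5074 than in WT DMSO, while neither macrophage class nor neutrophil-like cells passed the threshold for it. Across all genes tested over all cells, 3.44% were called higher and 7.31% lower in that comparison. Clec4n stood at 413, 591 and 623 CPM, with KO DMSO called higher by 0.59 (log2), and Clec4a3 at 54.3, 84.9 and 90 CPM was called higher in both other libraries (0.64 and 0.73). For KO DMSO over WT DMSO 4.04% of all genes were called higher and 11.4% lower, and for KO DMSO over WT GW5074 1.21% and 2.61%.

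KO DMSO was then compared with WT DMSO within classes. A pair of lectin and class was tested if either library reached 10 CPM, and of 29 such pairs 7 were higher and 2 lower in KO DMSO. Of all genes, 2.27% were called higher and 4.17% lower in RAM-like cells, 1.75% and 4.84% in MDM-like, 7.42% and 6.43% in neutrophil-like, 7.19% and 10.9% in cDC2-like, 4.62% and 9.01% in cDC1-like, 4.35% and 16.6% in migratory dendritic cell-like and 3.1% and 10.6% in T cell-like cells. The pairs lay in 5 classes: 4 of the 9 in cDC2-like cells, 2 in neutrophil-like cells and 1 each in RAM-like, cDC1-like and T cell-like cells. In macrophages the lectin that passed was Clec4d: in RAM-like cells it stood at 86.9 CPM in WT DMSO, 110 in WT GW5074 and 143 in KO DMSO, a log2 ratio of 0.72 (0.59 to 0.85) for KO DMSO over WT DMSO; the 5 lectins tested had a median of 0.20 beside -0.07 over all genes. The KO DMSO library was the highest of the 3 and no intervals overlapped. In MDM-like cells Clec4d stood at 189, 195 and 261 CPM, a log2 ratio of 0.47 (0.36 to 0.58), which stayed under the fold; the median of the 5 lectins tested was 0.37 beside -0.08 over all genes.

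Clec4n differed less in macrophages. Its log2 ratio for KO DMSO over WT DMSO was 0.25 (0.2 to 0.29) in RAM-like cells and 0.37 (0.31 to 0.43) in MDM-like cells, where its levels were 684, 737 and 885 CPM. Both intervals lay above 0 and below the fold asked for. Clec4e ratios were 0.09 (-0.1 to 0.28) and 0.20 (-0.05 to 0.45), intervals that hold 0. Clec4a2 ratios were -0.18 and 0.00, and Clec4a3 ratios 0.20 and 0.38. With Clec7a at 15.2 CPM in place of 769 in RAM-like cells, no lectin of the 5 tested stood at more than 1.65-fold its WT DMSO level in the sum of either macrophage class; single clusters reached more.

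The macrophage classes are sums of clusters whose shares differed between libraries. RAM-like cells came from clusters 3, 6 and 11, cluster 6 being the largest in WT DMSO (40.3%) and WT GW5074 (34.8%) and cluster 11 in KO DMSO (38.3%, against 22.5% in WT DMSO). Clec4d for KO DMSO over WT DMSO was called in 2 of the 3, clusters 3 and 6, which each had 5 of 10 resident markers raised. Cluster 3 was led by Car4 and Scgb1a1, the latter an epithelial gene, and had a median of 2048 UMIs per cell. At a finer clustering, a cluster led by Scgb1a1 stayed unnamed. In cluster 3 Clec4d stood at 60.1, 90.4 and 141 CPM, a log2 ratio of 1.23 (0.93 to 1.54) or 2.34-fold. Of all genes there, 3.13% were called higher and 9.75% lower. Clec4d was also called there for WT GW5074 over WT DMSO, at 0.59 (0.29 to 0.90) with 1.27% of genes called higher, and for KO DMSO over WT GW5074, at 0.64 (0.44 to 0.84) with 2.62%. Cluster 6, led by Fstl1 and Kcnn3, stood at 111, 147 and 192 CPM, a ratio of 0.79 (0.63 to 0.95) or 1.73-fold for KO DMSO over WT DMSO, with 2.3% of genes called higher. A cluster led by Fstl1 stayed unnamed at a finer clustering and with a stricter cell filter. At the finer clustering its best-scoring markers were those of monocyte-derived macrophages (4 of 10 raised) and of monocytes (2 of 8). With the stricter filter they were those of monocytes (2 of 8) and of resident alveolar macrophages (1 of 10). The cells these unnamed clusters shared with cluster 6 were not counted. Cluster 11, with all 10 resident markers raised, stood at 59.7, 66.5 and 76.5 CPM, a ratio of 0.36 (0.02 to 0.71) that stayed under the fold, where 4.26% of genes were called higher. Cluster 11, with the larger share in KO DMSO, thus had the lowest Clec4d there, and the differences between the clusters' ratios were not tested.

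In the monocyte-derived clusters 4 and 5, the Clec4d log2 ratios were 0.54 and 0.47, both under the fold. Clec4e was called in each, in different comparisons. Cluster 5, led by Apoe, C1qa and Pf4, stood at 28.8, 32.4 and 44.8 CPM, and KO DMSO was higher by 0.64 (0.28 to 1.01) than WT DMSO, with 2.12% of genes called higher. Cluster 4, led by Mmp12 and Mucl1, stood at 58.7, 34.3 and 47.6 CPM, and the log2 ratio of WT GW5074 over WT DMSO was -0.77 (-1.13 to -0.41), called lower as were 1.68% of all genes. Neither was called in the class as a whole. Neutrophil markers, 9 of 9 detected in WT DMSO, summed to 609 CPM in RAM-like cells of that library and to 289 in KO DMSO. The part of neutrophil RNA in the lectin ratios of macrophages was not tested.

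In neutrophil-like cells, Clec4n and Clec4d were higher in KO DMSO than in WT DMSO, and Clec4e was not called. Clec4n stood at 783, 1160 and 1430 CPM, a log2 ratio of 0.87 (0.67 to 1.06) for KO DMSO over WT DMSO. Clec4d stood at 491, 577 and 846 CPM, a ratio of 0.78 (0.52 to 1.03). Both exceeded the fold. Clec4e had a ratio of 0.21 (-0.16 to 0.56).

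The neutrophils of the libraries were not the same mixture. At a finer clustering they fell into a cluster led by S100a9, Stfa2l1 and Retnlg (N0), which held 87.1% of WT DMSO neutrophils, 6.92% of WT GW5074 and 7.6% of KO DMSO, and a cluster led by S100a9, Hdc, Mmp9 and Csf1 (N1), which held 12.9%, 93.1% and 92.4%. Within WT DMSO, N1 stood above N0 for Clec4n (1080 against 743 CPM), Clec4d (781 against 454) and Clec4e (518 against 339). Within N1 alone, Clec4n stood at 1080, 1230 and 1440 CPM and the log2 ratio of KO DMSO over WT DMSO was 0.42. For Clec4d it was 0.09, with 781, 546 and 830 CPM. Neither was called in N1, where 3.06% of all genes were called higher. The Clec4n intervals (958 to 1200 and 1260 to 1640) did not overlap, so that a smaller difference remained, while those of Clec4d (681 to 891 and 697 to 982) did. N0 held under 50 cells outside WT DMSO. Within N1, Clec4d was higher by 0.60 in KO DMSO than in WT GW5074, where 2.41% of all genes were called higher.

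**Figure D3:**
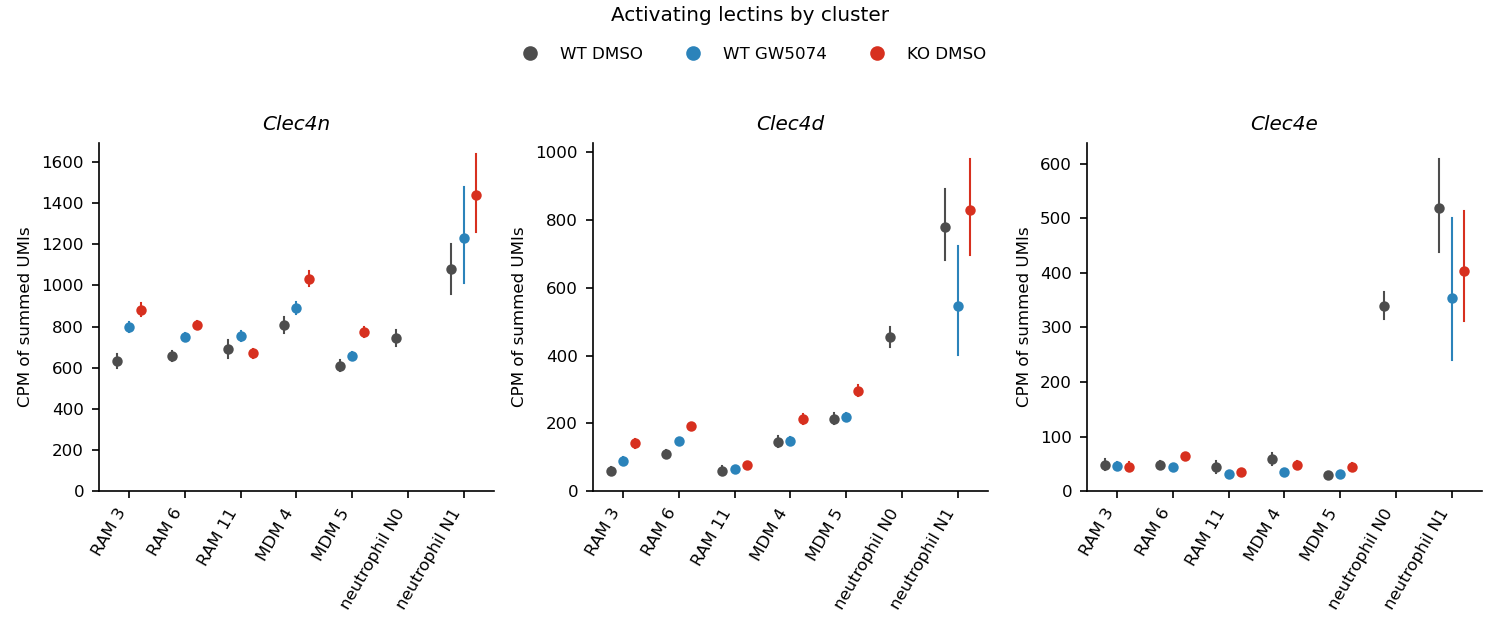
Level of the 3 activating lectins (CPM of summed UMIs, linear axis from 0) in the clusters of resident alveolar (RAM) and monocyte-derived (MDM) macrophages and of neutrophils (N0, N1), 1 point per library with 95% Poisson intervals; clusters with under 50 cells in a library are not drawn. Clec4d is highest in KO DMSO in RAM 3 and RAM 6, and N1 lies above N0 for all 3 genes in WT DMSO.

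Dendritic cells gave mixed results. In cDC2-like cells of KO DMSO, Clec4n (log2 ratio 0.83), Clec4d (1.04) and Clec4a2 (0.82) were higher. Clec4e was lower there, at 29.5, 13.3 and 8.5 CPM, a ratio of -1.80 (-3.32 to -0.56). The 9 neutrophil markers summed in cDC2-like cells to 1770, 449 and 496 CPM, with Retnlg and G0s2 at 0 outside WT DMSO. Neutrophil markers and Clec4e were thus both highest in WT DMSO. The MDM markers were lowest in WT DMSO, as Clec4n, Clec4d and Clec4a2 were, and the RAM markers were highest there. No other macrophage list was summed, and the part of either in these differences was not tested. In cDC1-like cells Clec4d was lower in KO DMSO, at 14.3, 9.31 and 6.08 CPM. The 9 neutrophil markers summed there to 887, 165 and 140 CPM, with 0, 1 and 3 of them at 0, and their part in this difference was not tested. T cell-like cells were called higher for Clec4n (0.66).

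WT GW5074 over WT DMSO gave 4 pairs called higher and 1 lower among 30. Of all genes, 0.783% were called higher and 0.662% lower in RAM-like cells, 0.825% and 0.982% in MDM-like, 5.59% and 2.97% in neutrophil-like, 9.16% and 6.3% in cDC2-like, 2.97% and 1.81% in cDC1-like, 3.27% and 5.52% in migratory dendritic cell-like and 4.32% and 5.36% in T cell-like cells. None of the lectin calls was in the class sums of macrophages or neutrophils; within single clusters, Clec4d was higher in RAM cluster 3 (0.59) and Clec4e lower in MDM cluster 4 (-0.77). In RAM-like cells the log2 ratios were 0.22 for Clec4n, 0.34 (0.21 to 0.48) for Clec4d and -0.22 for Clec4e. In MDM-like cells they were 0.11, 0.05 (-0.06 to 0.16) and -0.28. In neutrophil-like cells Clec4n had a ratio of 0.57 (0.28 to 0.86), just under the fold. The 4 higher pairs were Clec4n (0.69) and Clec4a3 (0.95) in cDC2-like cells, Clec4n in migratory dendritic cell-like cells (0.62) and Clec4n in T cell-like cells (0.70), and the lower one was Clec4e in cDC2-like cells (-1.15). In the migratory class, cluster 16 held 39.5% of cells in WT DMSO and 1.27% in WT GW5074. Within cluster 7 alone Clec4n stood at 31.1 and 41.2 CPM in the wild-type libraries, under the fold.

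KO DMSO over WT GW5074, which differ in genotype and in treatment, gave 0 pairs higher and 1 lower among 28. Of all genes, 1.03% were called higher and 2.21% lower in RAM-like cells, 1.26% and 4.11% in MDM-like, 2.29% and 3.93% in neutrophil-like, 2.8% and 8.31% in cDC2-like, 3.72% and 11.3% in cDC1-like, 3.49% and 11.9% in migratory dendritic cell-like and 3.96% and 8.58% in T cell-like cells. The pair was Clec4a3 in cDC2-like cells, at 50.8 CPM in WT GW5074 and 19.8 in KO DMSO. For Clec4d the ratio was 0.38 (0.29 to 0.47) in RAM-like and 0.42 (0.33 to 0.51) in MDM-like cells. Clec4d was thus highest in KO DMSO in both macrophage classes, without reaching the fold against WT GW5074 in the class sums; in RAM cluster 3 it did (0.64). Comparisons that share a library are not independent of each other.

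**Figure D4:**
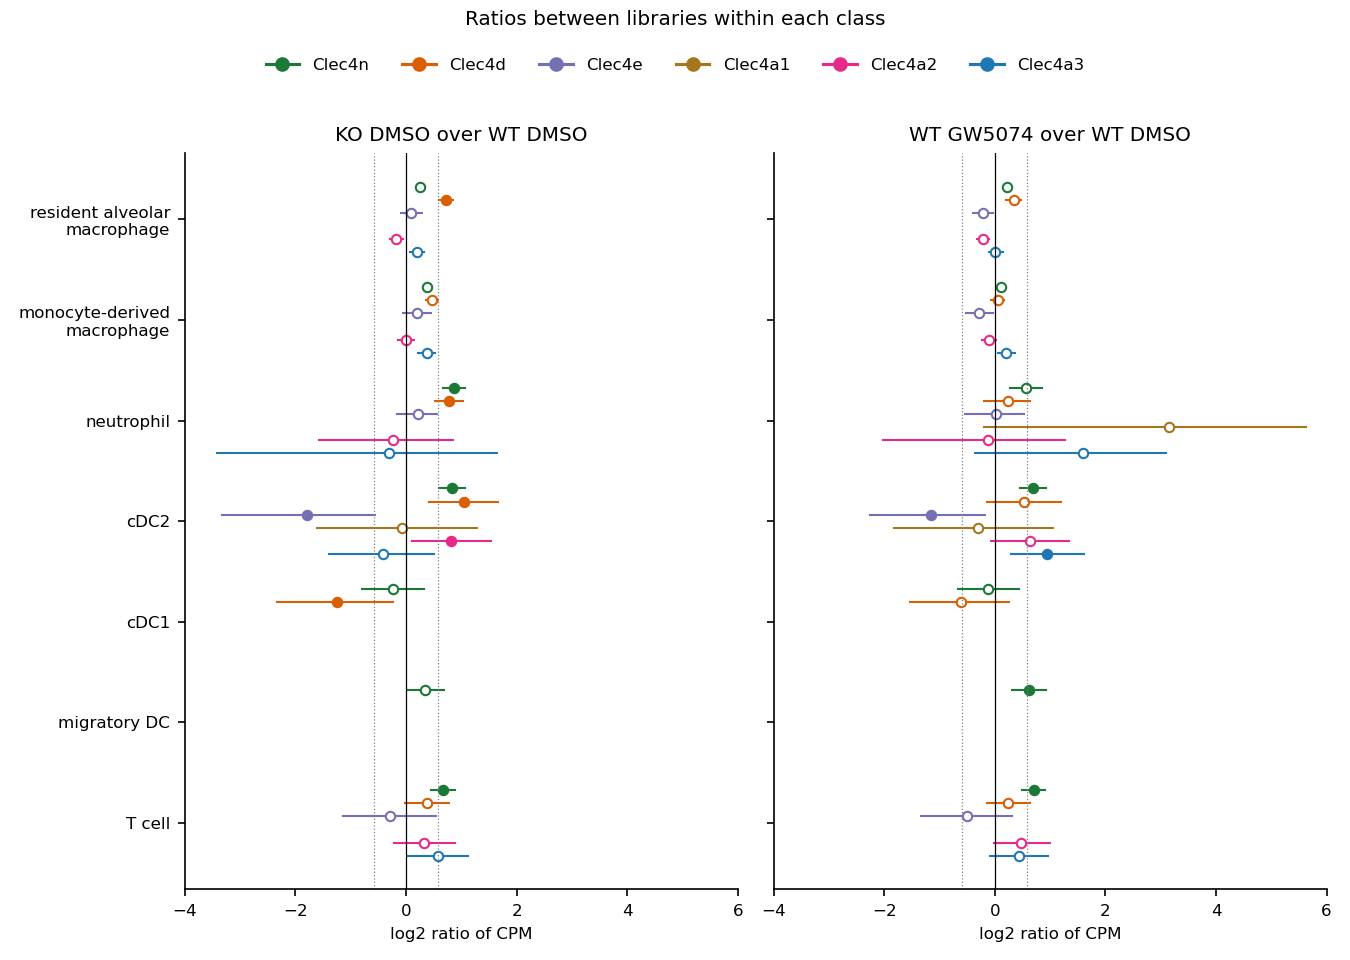
Log2 ratio of each lectin's CPM between libraries, by class, for KO DMSO over WT DMSO and WT GW5074 over WT DMSO, with 95% intervals; filled points passed the 1.5-fold threshold (dotted lines) with an interval that left out 0 on this scale. Clec4d passes at 0.72 in resident alveolar macrophages for KO DMSO, and no macrophage point passes for WT GW5074.

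The share of cells with a lectin UMI was compared after thinning each cell to 500 UMIs. In RAM-like cells a UMI of any of the 6 lectins was found in 35.5% (33.5 to 37.6, exact Clopper-Pearson) of WT DMSO cells, 41.7% (40.5 to 42.9) of WT GW5074 cells and 43.4% (42 to 44.8) of KO DMSO cells. In MDM-like cells the shares were 40.4%, 44% and 49.5%. In neutrophil-like cells they were 52.6%, 64.1% and 69.8%. T cell-like cells, the background, stood at 10.6%, 15.5% and 13.4% at median depths of 1362, 1059 and 1216 UMIs, against 3095, 2287 and 2882 in RAM-like cells before thinning. A Clec4n UMI was found in 24.2%, 30.2% and 30.5% of RAM-like cells.

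Clec4d and Clec4e were seen in few macrophages at that depth. Clec4d UMIs were found in 3.79%, 4.83% and 6% of RAM-like cells, against 3.15%, 2.26% and 2.2% of T cell-like cells. Its WT DMSO share in these macrophages lay within the T cell-like interval of 1.91% to 4.88%, and that of KO DMSO lay above the T cell-like interval of 1.1% to 3.89%. By CPM, Clec4d in T cell-like cells ran the other way, from 81.6 in WT DMSO to 96.5 in WT GW5074 and 106 in KO DMSO. The background order thus differed between the measures. Other classes of WT DMSO stood below T cell-like cells in Clec4d: B cell-like at 73.8 CPM, cDC2-like at 30.2 and cDC1-like at 14.3. T cell-like cells, which carried macrophage and neutrophil markers, were thus not the lowest background. In neutrophil-like cells Clec4d was found in 20.7%, 27.3% and 29.4%, and Clec4e in 15.9%, 17.2% and 16.9%. Clec4e was found in 2.04%, 1.89% and 2.15% of RAM-like cells and in 0.332%, 0.902% and 0.599% of T cell-like cells. In WT DMSO these intervals, 1.48% to 2.72% and 0.0402% to 1.19%, did not overlap.

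Genes of the shared signalling path were read beside the share of all genes called. Of 10 partner genes tested in RAM-like cells, 0 were higher and 1 lower in KO DMSO than in WT DMSO, where 4.17% of all genes were called lower, with a median log2 ratio of -0.18 beside -0.07 over all genes tested. The lowest was Prkcd, the gene of the kinase PKCδ that acts between Syk and Card9, at 282, 276 and 167 CPM, and the highest was Fcer1g, the γ chain, at 2070, 2020 and 2300 CPM, under the fold. In MDM-like cells Prkcd (332, 336 and 207 CPM) and Vav2 (74.3, 62.1 and 44.9 CPM), an exchange factor, were lower, 2 of 10 where 4.84% of all genes were, with a median of -0.01 beside -0.08. Malt1, part of the Card9 complex, had the highest ratio there, 0.18. In WT GW5074 none of the 10 passed in either class, as under 1% of all genes did in each direction, and the ratios ran from -0.24 (Plcg2) to 0.10 (Vav1) in RAM-like and from -0.26 (Vav2) to 0.25 (Malt1) in MDM-like cells.

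Of 5 other γ chain receptors, 4 were tested in macrophages, and Fcgr3, a low-affinity receptor for IgG, was higher in KO DMSO in both classes. Of all genes, 2.27% were called higher and 4.17% lower in RAM-like cells, and 1.75% and 4.84% in MDM-like cells. Fcgr3 stood at 235, 287 and 407 CPM in RAM-like cells, 1.73-fold above WT DMSO (1.64 to 1.83), and at 373, 387 and 609 CPM in MDM-like cells, 1.63-fold (1.55 to 1.72). Fcgr1, Fcgr4 and Pira2 were not called, and Fcgr1 had the lowest ratio in both, 0.01 and -0.04. None of the 3 phosphatase genes was called in macrophages, where Inpp5d, the gene of the lipid phosphatase SHIP1, had the lowest ratio for KO DMSO over WT DMSO, -0.42 in RAM-like and -0.17 in MDM-like cells. Of the cluster's other genes, Clec4b1 stood at 47.8, 40 and 37.8 CPM in RAM-like cells, under the fold, and Clec4b2 and Clec4a4 were too low to test.

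Among the output genes, 3 of 10 were high enough to test in macrophages. For KO DMSO over WT DMSO, 1 was called higher and 1 lower in RAM-like cells, beside 2.27% and 4.17% of all genes. In MDM-like cells 2 were called higher, beside 1.75% of all genes, and all 3 had ratios above 0. For WT GW5074 over WT DMSO, 1 was called lower in each class, beside 0.662% and 0.982% of all genes. Cxcl2, a neutrophil-attracting chemokine, stood at 16.9, 7.11 and 32.7 CPM in RAM-like cells. It was 1.93-fold higher in KO DMSO and 2.38-fold lower in WT GW5074 than in WT DMSO. In MDM-like cells it stood at 31.9, 15.7 and 69 CPM, in the same order. Tnf was higher in KO DMSO in MDM-like cells, at 11.2, 12 and 23.7 CPM, and Il1b was lower in RAM-like cells, at 85.7, 68.4 and 51.1 CPM. KO DMSO was thus the high library for Cxcl2 in both macrophage classes. These sums hold the same shift in cluster shares as those of the lectins, whose part here was not tested.

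Genes with the most similar pattern were sought over 26 class-by-library sums, by Pearson's r of log2(CPM + 5) among 6980 genes. The sums share libraries and depth, so r is a description. They include T cell-like and B cell-like cells, which should lack these receptors, and the part of those sums in r was not tested. Closest to Clec4n were Mitf, Pilra and Fcer1g, its own signalling partner, each at 0.97. Closest to Clec4d were Igsf6 (0.97), Cd300ld and Rnf149 (0.95), and closest to Clec4e were Rffl (0.97), Dusp6 (0.96) and Tpd52 (0.95). For Clec4a2 they were Lrp1 (0.97), F10 (0.96) and Xdh (0.95), for Clec4a3 Msr1 (0.96), Zeb2os and Dok2 (0.95), and for Clec4a1 Vcan (0.81), F13a1 (0.80) and Tmem119 (0.79). Among the lectins themselves, r was 0.93 between Clec4n and Clec4d, 0.90 between Clec4d and Clec4e and 0.91 between Clec4a2 and Clec4a3. Clec4n was also close to Clec4a2 (0.87), while r was 0.51 between Clec4e and Clec4a3 and 0.43 to 0.63 between Clec4a1 and the other 5.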

How the data were processed

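Droplet 3′ libraries with cell barcodes and UMIs were processed by the authors with Cell Ranger 2.1.1 on mm10, per the submitters' processing notes; the labels name both a SeekOne chip and 10x Genomics. The deposited matrices hold raw UMI counts, per the file headers whole numbers per gene and barcode, and every deposited barcode had at least 500 UMIs. The filter (200 genes or more, mitochondrial UMIs up to 20%) left 42888 cells. Cells were scaled to 10000 UMIs, and 30 components of 2000 variable genes were clustered (scanpy 1.11.5, Leiden, resolution 1; mixed clusters split once at 0.5). Scrublet called 0.00933% of cells and was not used; clusters with a median doublet score over 0.1 stayed unnamed. UMIs were summed by class and library; levels needed 50 cells, ratios 100 cells in both libraries and 10 CPM in 1. Ratio intervals are exact conditional binomial (95%). They were run on simulated Poisson counts, the spread they assume, which cannot show how they hold with spread between cells or animals. The number of mice was not given, so libraries cannot show spread between animals. Ratios were recomputed under other filters, resolutions, a per-cell marker gate, TMM scaling (edgeR 4.0.16), means per cell, without the top 10% of doublet scores, the largest cluster of each class, and with lectins left in the clustering; single clusters were added after seeing the data. Named were the 6 lectins, Clec7a, the highest and lowest member of each partner list in macrophages, and the 3 most alike genes per lectin; other partners past the threshold were picked after their values were seen. Members, lists and promoter motifs were chosen with earlier results of these data known.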

Additional observations from a re-analysis of the deposited data

Results flagged for a closer look

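For KO DMSO over WT DMSO, Clec4d was called in opposite directions in different classes: the log2 ratio was 1.04 in cDC2-like, 0.78 in neutrophil-like and 0.72 in RAM-like cells but -1.24 in cDC1-like cells. The difference between classes was not tested. The cDC1 levels of 14.3 and 6.08 CPM are low, and neutrophil markers there stood at 887 and 140 CPM.

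Some lectins were called in both directions in clusters left without a name. In cluster 8, which has migratory dendritic cell genes and a high doublet score, Clec4n was higher by 0.60 (log2) in WT GW5074 and 0.69 in KO DMSO than in WT DMSO, and Clec4a3 by 0.89 and 1.06, while Clec4e ratios were -1.36 and -0.94. Of all genes in cluster 8, 6.42% and 5.7% were called higher and 8.09% and 13.4% lower. In cluster 12, led by cell cycle genes such as Top2a and Mki67, Clec4e was higher by 0.70 in WT GW5074 (1.97% of genes called higher) and Clec4n by 0.64 in KO DMSO (3.21%). In cluster 14, which has cDC1 genes and a high doublet score, Clec4d was higher by 0.82 in KO DMSO (3.02%), while Clec4e ratios were -0.90 in WT GW5074 and -1.25 in KO DMSO (3.42% and 5.87% called lower). Over all unnamed cells, Clec4e stood at 71.7, 38.3 and 44.7 CPM in WT DMSO, WT GW5074 and KO DMSO, and Clec4d at 144, 117 and 162.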

How the results depend on the processing

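No paired analysis was possible because each group has 1 library. Of 15 ratios that passed, 5 did so under every alternative chosen at the outset that gave a value: for KO DMSO over WT DMSO, Clec4d in RAM-like cells (log2 0.68 to 0.83), Clec4n (0.83 to 0.92) and Clec4d (0.66 to 0.80) in neutrophil-like cells and Clec4e in cDC2-like cells (-3.07 to -1.74), and, for WT GW5074 over WT DMSO, Clec4n in T cell-like cells (0.70 to 2.24). With single clusters, chosen after seeing the data, the neutrophil calls ended in N1 (0.42 for Clec4n, 0.09 for Clec4d) and the RAM-like Clec4d call in cluster 11 (0.36). Clec4d in cluster 3 alone passed for WT GW5074 over WT DMSO (0.59) and for KO DMSO over WT GW5074 (0.64). Of 72 that did not pass, 19 did under at least 1 alternative. The cause was not tested for any change below.

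For WT GW5074 over WT DMSO, the 4 higher pairs became 8 at resolution 0.5, 9 with the gate, 2 without the highest doublet scores and 0 at a fold of 2; the 1 lower pair became 3 with the stricter filter, 3 at resolution 0.5, 2 with the gate and 6 with lectins left in the clustering. For KO DMSO over WT DMSO, the 7 higher pairs became 1 at a fold of 2; the 2 lower became 4 with the stricter filter, 4 at resolution 0.5, 1 without the highest doublet scores and 7 with lectins left in. For KO DMSO over WT GW5074, the 0 higher pairs became 2 with the gate, 1 with TMM and 1 with means per cell; the 1 lower became 2 with the stricter filter, 4 at resolution 0.5, 3 with the gate and 0 without the highest doublet scores.

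A called ratio changed sign, or an uncalled ratio was called in the opposite direction, in dendritic cells and once in neutrophils. At resolution 0.5, cDC1-like ratios became 0.87 (Clec4n) and 0.93 (Clec4d) for WT GW5074 and 0.66 (Clec4d) for KO DMSO; with the gate they became 0.98 (Clec4n, WT GW5074) and 0.46 (Clec4d, KO DMSO), cDC2-like Clec4d became -0.46 for KO DMSO and neutrophil-like Clec4e -0.61 for WT GW5074. Clec4n in migratory cells for WT GW5074 became -0.10 with the stricter filter and -0.01 with lectins left in. Uncalled ratios also changed sign without a call, in macrophages too. Clec4e in MDM-like cells for WT GW5074, lower than WT DMSO in the class, became 0.17 in its largest cluster. Of 156 shares, 117 left their interval without thinning and 93 at 1000 UMIs. A share of cells with a UMI rises with depth, so these counts do not show whether the order of libraries or classes changed. With a pseudocount of 1 CPM, all 3 genes most like Clec4n and Clec4a2 remained, 2 for Clec4d and Clec4e, 1 for Clec4a3 and 0 for Clec4a1. Neutrophil and monocyte counts outside WT DMSO limit those classes: the KO DMSO neutrophil sum held 170147 UMIs.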
